A study of Rattus norvegicus with 20 samples.

Results

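The inbred parents of the P and NP congenic rats were compared directly, as the 5 femur arrays of alcohol-preferring (P) rats against the 5 femur arrays of alcohol-non-preferring (NP) rats, which together are 10 of the 20 arrays of the series. Each array was hybridised with RNA of 1 rat aged 4 weeks. P and NP rats are inbred lines that were derived from a Wistar colony by selective breeding for high and low alcohol preference, and no animal received a drug or a diet as a treatment. They differ both in the genetic background and in the 4q22-q34 segment of chromosome 4. The other 10 arrays came from the reciprocal congenic lines, 5 of NP.P rats (the P segment on the NP background) and 5 of P.NP rats (the NP segment on the P background). P and NP are each represented by a single inbred line, so a difference that arose with selection and one that was fixed by chance during inbreeding cannot be told apart here. The sample labels name the proximal femur, and bone, growth plate cartilage, marrow and attached tissue were extracted together, with no sorting of cells. The labels of the arrays give no sex.

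Long bones of a growing rat contain osteoblasts, which lay down a matrix of type I collagen and mineral, osteoclasts, which resorb it with acid and cathepsin K, and chondrocytes of the growth plate, which lengthen the bone. The marrow cavity makes red cells, platelets, granulocytes and lymphocytes, and resident macrophages clear the remnants of these lineages. Inbred rat lines also differ in the major histocompatibility complex (RT1 on chromosome 20), a set of highly polymorphic genes whose products present peptides to T cells.

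The values are MAS5 signals, which are intensities of an Affymetrix probe set (a group of short probes against 1 transcript) on a linear scale, and differences are given as P minus NP on the log2 scale, from a limma model over all 20 arrays. An adjusted p (Benjamini-Hochberg over all 18625 probe sets tested) under a false discovery rate of 10% was taken as a difference, and no signal of 1 probe set is set against that of another. Marker genes of bone and marrow were present in both lines. The mean signal of Col1a1 (type I collagen) was 77184 in NP and 74811 in P rats, that of Ctsk (cathepsin K) was 33149 and 36416, and that of Alas2 (heme synthesis in red cell precursors) was 29612 and 29096. Acta1, the actin of skeletal muscle, was also high, at 73755 and 70352, so the RNA held muscle as well. NP replicate 2 and P replicate 2 stood apart from the other arrays of their lines on the second principal component (12.3% of the variance), and P replicate 2 had the lowest score of the 17 cartilage genes, -1.55 against -0.10 to 0.39 in the other P arrays. For GAPDH, signal at the 3′ end over that at the 5′ end, a sign of RNA quality, was 1.03 to 1.13 in NP and 1.11 to 1.15 in P rats, and for actin it was 2.07 to 2.39 and 1.87 to 2.31.

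Between P and NP femurs 999 of the 18625 probe sets differed (5.36%), 452 of them higher in P rats (2.43%) and 547 lower (2.94%). The unadjusted p was under 0.05 for 2974. Most of these differences were small. The median size of the difference was 0.49 log2 among the 999 against 0.12 over all probe sets tested, and 133 differed by over 1 log2, 68 upward and 65 downward in P rats. Of the 999, 250 carried no gene symbol. With 1 probe set read per gene, 572 of 10665 genes differed (5.36%), 231 higher (2.17%) and 341 lower (3.2%) in P rats. All 5 P arrays lay above or below all 5 NP arrays for 495 genes (4.64%), 298 of them with P below NP (2.79%) and 197 with P above NP (1.85%). Every chromosome held probe sets that differed, from 3.01% of those tested on chromosome 19 to 9.07% on chromosome 20, 8.92% on chromosome 16 and 8.39% on chromosome 14.

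The largest increase outside the RT1 genes, with each gene read at its brightest probe set, was that of Fam111a, a protease that acts at replication forks and is known for mutations in inherited skeletal dysplasia. Its signal was 4350.4, 3678, 4544, 4179 and 4175 in the 5 NP rats and 35324, 27637, 33940.4, 35649.7 and 35533 in the 5 P rats (log2 difference 3.0, standard error 0.09, adjusted p = 3.07e-14). The lowest P rat was above the highest NP rat by a wide margin. Gfap, the intermediate filament protein of astrocytes, rose from 369 ± 57.9 (SD, n = 5) in NP to 1139 ± 85.6 in P rats (log2 difference 1.64, standard error 0.13, adjusted p = 6.35e-08). Atp10d, a subunit of phospholipid flippases, had signals of 396, 291, 424, 392 and 243 in NP and 1156, 1089, 1114, 949 and 1151 in P rats (log2 difference 1.67, standard error 0.14, adjusted p = 2.74e-07). Again the arrays of the lines did not overlap. Pdgfrl, a protein related to the receptors of platelet-derived growth factor, was 2532 ± 168 in NP and 5182 ± 452 in P rats (log2 difference 1.03, standard error 0.08, adjusted p = 3.77e-08). Impa2, an inositol monophosphatase, was 429 ± 21.6 and 855 ± 79.8 (log2 difference 0.99, standard error 0.08, adjusted p = 2.73e-07). The transmembrane protein Tmco3 (log2 difference 1.34, adjusted p = 6.35e-08) had a further probe set that also rose (1.35, adjusted p = 0.0011).

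Other genes with low adjusted p values were Mga, a transcription factor of the MAX network (1.18, adjusted p = 6.14e-07), Arpc4, a subunit of the ARP complex that nucleates actin (1.43, adjusted p = 1.48e-06), Rexo4, an exonuclease (1.44, adjusted p = 1.09e-06), and Nhsl2 (1.25, adjusted p = 2.33e-06), all higher in P rats. By size of the difference, the genes higher in P rats also included Prcp, a carboxypeptidase that cleaves angiotensins (2.12, adjusted p = 0.0162), Cand2, a regulator of cullin ligases (1.61, adjusted p = 0.00109), Rsu1, a partner of integrin adhesion complexes (1.54, adjusted p = 0.000538), and Plekhb1 (1.47, adjusted p = 9.71e-06). For Prcp, 1 NP rat with a signal of 47.6 lay far below the other NP rats, whose signals ran from 230.2 to 282, while the P rats ran from 629 to 905.

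The largest decrease outside the RT1 genes was that of Lcn2, lipocalin 2, an iron-siderophore binding protein of neutrophil granules that osteoblasts also secrete. Its signal was 13701, 13848, 15157, 13472 and 12423 in NP rats and 1009, 808, 963, 922 and 809 in P rats (log2 difference -3.93, standard error 0.09, adjusted p = 6.32e-16). The highest P rat, at 1009, lay far below the lowest NP rat, at 12423. Setd1b, a histone methyltransferase, was 2035, 1756, 2179.6, 1836 and 2089.8 in NP and 405, 348, 307, 238 and 337 in P rats (log2 difference -2.61, standard error 0.13, adjusted p = 5.89e-11), also without overlap. Sgcb, the beta subunit of the sarcoglycan complex of muscle membranes, fell from 2242 ± 619.5 to 249 ± 71.1 (log2 difference -3.18, standard error 0.27, adjusted p = 2.38e-07). Its other probe sets were less clear, since one fell by 0.65 (adjusted p = 0.00388) and another differed by 0.18 (adjusted p = 0.633). Dck, deoxycytidine kinase, was 2963 ± 229 in NP and 1391 ± 167 in P rats (log2 difference -1.10, standard error 0.08, adjusted p = 6.35e-08), and a second probe set of Dck fell by 1.94 (adjusted p = 2.56e-07).

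Other genes with low adjusted p values in the downward direction included Uqcc6, an assembly factor of respiratory complex III (-1.40, adjusted p = 3.72e-09), and Snrpf, a core protein of the spliceosome (-0.86, adjusted p = 9.61e-08). Slc39a7, a zinc transporter of the endoplasmic reticulum whose gene lies on chromosome 20 (-1.07, adjusted p = 4e-07), Snx27, a sorting protein of endosomes (-0.84, adjusted p = 8.09e-07), Nrtn, the neurotrophic factor neurturin (-1.38, adjusted p = 1.01e-06), and C3h15orf48 (-1.03, adjusted p = 1.09e-06) were lower in P rats too. The 3 other probe sets of Snx27 did not pass, with differences of 0.08, -0.39 and -0.40 (adjusted p = 0.673, 0.422 and 0.246). Among the largest decreases were those of Cwc25, a splicing factor (-2.74, adjusted p = 0.000327), and Vof16 (-2.97, adjusted p = 7.39e-05), whose P signals averaged 119 and 80, under the signal of 169.7 that a probe set had to reach on average to be tested. With the P group set at that signal, the NP mean was at least 3.99-fold higher for Cwc25 and at least 3.02-fold higher for Vof16.

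**Figure D1:**
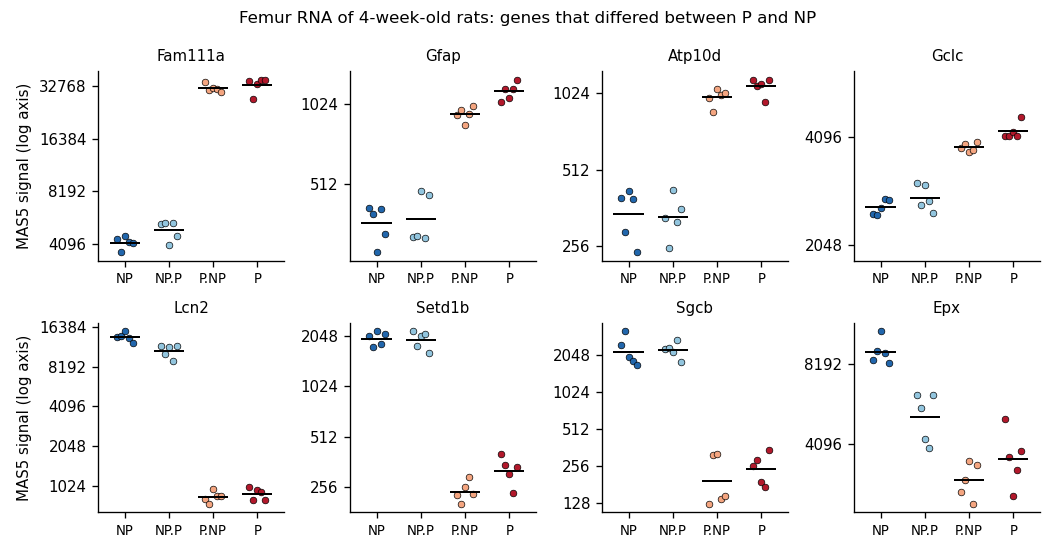
MAS5 signal (log axis) of 4 genes higher and 4 genes lower in P than in NP femurs, in all 4 strains, with 1 point per rat and a line at the geometric mean of 5 rats. Fam111a averages 4185 in NP and 33617 in P rats, Lcn2 13720.3 and 902, and the congenic strains are drawn for comparison.

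The RT1 genes held the largest differences of all, in both directions. Of 24 RT1 probe sets tested, for 16 genes, 6 were higher and 7 lower in P rats, where 2.43% and 2.94% of all probe sets were. RT1-Bb, the beta chain of the class II molecule RT1-B (GRCr8 chr20:4598475-4604118), was read at a probe set with signals of 2439.6, 2419, 2376, 2611 and 3203 in NP rats and 12.8, 62, 56.6, 58.3 and 103 in P rats (log2 difference -5.74, standard error 0.49, adjusted p = 2.74e-07). P rats gave almost no signal there, and with the P group set at a signal of 169.7 the NP mean was at least 15.4-fold higher. A second probe set of the same gene ran the other way, with 133, 82.6, 102, 78.6 and 100.2 in NP and 901, 663, 582, 607 and 747 in P rats (log2 difference 2.83, standard error 0.44, adjusted p = 0.000471). RT1-Ba, the alpha chain of the same molecule (chr20:4577057-4581650), showed the same opposition. The probe set with its highest mean was 1274, 1078, 1224, 1437 and 1391 in NP and 742, 748, 519, 619 and 668 in P rats (log2 difference -0.96, standard error 0.15, adjusted p = 0.00044), but another was 22.4, 80.6, 26.3, 95.3 and 121 in NP and 2343, 1567, 1683, 1613 and 1354 in P rats (log2 difference 4.91, standard error 0.55, adjusted p = 9.02e-06). A class II gene could thus be called lower or higher in P rats from 1 probe set or another, and no direction of the gene was read from either. At the probe sets that rose, the NP means (99.3 for RT1-Bb and 69.0 for RT1-Ba) lay under the signal of 169.7. The sizes of those log2 differences are therefore uncertain.

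RT1-Db1, a beta chain of the class II molecule RT1-D, was called at 1 of 2 probe sets. There the mean was 792 ± 81.8 (SD, n = 5) in NP and 159 ± 62.9 in P rats (log2 difference -2.40, standard error 0.31, adjusted p = 4.46e-05), and at the other it was 1091 ± 52.4 and 1214 ± 130.0 (log2 difference 0.15, standard error 0.08, adjusted p = 0.37). The P mean at the called probe set lay under the signal of 169.7, so the size of that difference is uncertain. RT1-Da, the alpha chain of RT1-D, had 1 probe set, with 5547, 4316, 5556, 5821 and 6092 in NP and 3905, 3347, 3296, 3482 and 3922 in P rats (log2 difference -0.60, standard error 0.11, adjusted p = 0.00228). RT1-DMb, part of the DM molecule that loads peptides onto class II, was lower as well (-0.53, adjusted p = 0.00669). RT1-DMa, also part of DM, did not pass (0.13, adjusted p = 0.627). Genes of the class II pathway that are not RT1 antigens did not pass. Cd74, the invariant chain, differed by -0.12, adjusted p = 0.62, and Ciita, the master regulator of class II transcription, by 0.31, adjusted p = 0.301. Of the 8 class II genes tested, 4 were lower and 0 higher at the probe set read, where 3.2% of all genes were lower, but 2 of these 4 were RT1-Ba and RT1-Bb, whose other probe sets rose, so no direction was read for the list.

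Class I genes moved in both directions. RT1-CE16 was 604, 842, 1335, 688 and 929 in NP and 135, 168, 103, 55.1 and 76.6 in P rats (log2 difference -3.08, standard error 0.32, adjusted p = 3.6e-06), and RT1-CE10 was also lower (-1.61, adjusted p = 1.59e-05), while RT1-T24-4 was 2669, 2328, 2875, 2488 and 2587 in NP and 5997, 4224, 4794, 4955 and 4538 in P rats (log2 difference 0.91, standard error 0.10, adjusted p = 8.45e-06). RT1-CE12 (0.93, adjusted p = 1.38e-05), RT1-T24-3 (1.13, adjusted p = 7.74e-05) and RT1-A (1.35, adjusted p = 0.0179) were higher in P rats. The P mean of RT1-CE16 (108) and the NP mean of RT1-A (157) lay under the signal of 169.7. The sizes of their differences are therefore uncertain. Some of these class I genes are related copies, and a probe set can read more than 1 of them. Probe sequences were not analysed, so each value is uncertain as to which gene it measures. Of the genes that feed peptides to class I, Tap2, a subunit of the peptide transporter, was lower (-0.85, adjusted p = 0.00032) and Psmb8, a subunit of the immunoproteasome, was higher in P rats (0.63, adjusted p = 0.000102), with Tap1 (-0.24, adjusted p = 0.372), Psmb9 (0.06, adjusted p = 0.879) and B2m, the light chain of class I (-0.12, adjusted p = 0.378), not past the threshold. None of 15 interferon response genes passed, where 5.36% of all genes did, and their median was -0.04.

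Outside the RT1 genes a called gene rarely had a second probe set called the opposite way. Of 145 called genes with other tested probe sets, 113 had another in the same direction, 32 had another that was called in it, and 6 had another that was called in the opposite direction. Besides RT1-Ba and RT1-Bb these were Tubb5, a tubulin, Tmem248, Chmp1b, a subunit of the ESCRT machinery, and Lysmd4. Chmp1b read 1370.1 ± 89.5 in NP and 2121 ± 225 in P rats at its brightest probe set (log2 difference 0.63, standard error 0.07, adjusted p = 1.57e-05), and 1208 ± 206 and 736 ± 76 at another (log2 difference -0.70, standard error 0.11, adjusted p = 0.000582). A probe set reads only transcripts that match its probes, and probe sequences were not analysed here.

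**Figure D2:**
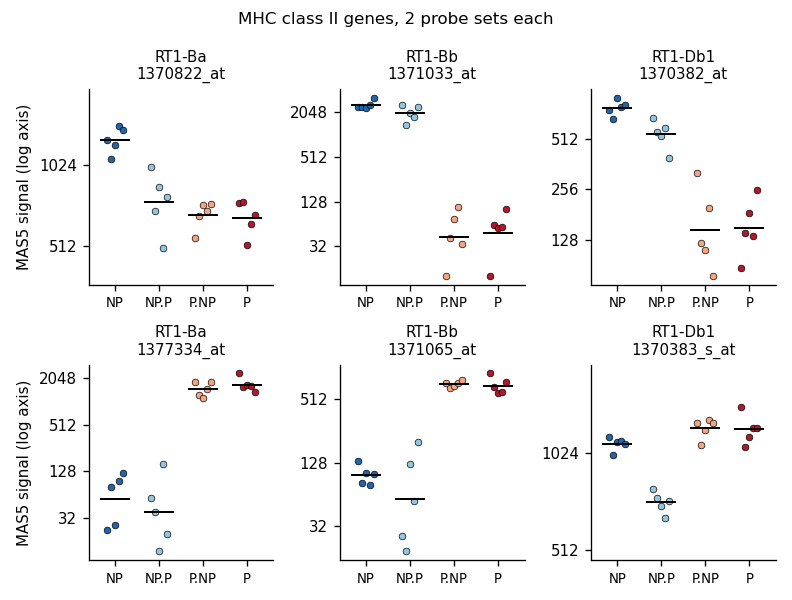
MAS5 signal (log axis) of RT1-Ba, RT1-Bb and RT1-Db1 at 2 probe sets each, in the 4 strains, with 1 point per rat and a line at the geometric mean of 5 rats. For RT1-Ba and RT1-Bb the upper probe set is lower and the lower probe set higher in P than in NP rats, and RT1-Db1 is lower in P rats at the upper probe set only.

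Megakaryocytes of the marrow make platelets, which carry chemokines in their granules and glycoprotein receptors for von Willebrand factor on their surface. Of 12 genes of this lineage tested, 9 were lower and 0 were higher in P rats, where 3.2% of all genes were lower, and the median of the 12 was -0.53 against 0.00 over all genes. For 7 of the 12 all P rats lay below all NP rats, as they did for 2.79% of all genes. Of 16 genes listed, 4 had no probe set with a single symbol. Ppbp, the platelet basic protein and a granule chemokine, was 6614, 7885, 7306, 7427 and 6869.5 in NP and 3425, 3103, 2498, 2111 and 2237 in P rats (log2 difference -1.46, standard error 0.12, adjusted p = 2.74e-07). Pf4, platelet factor 4, was 31372, 37283, 36089, 39636 and 35604 in NP and 26125, 24602, 21368, 23656 and 24317 in P rats (log2 difference -0.58, standard error 0.08, adjusted p = 0.000139). In both, the highest P rat was below the lowest NP rat. Vwf, von Willebrand factor, which endothelial cells also make, was 1298, 1385, 985, 1256 and 1011 in NP and 696, 718, 662, 642 and 578 in P rats (log2 difference -0.84, standard error 0.11, adjusted p = 4.35e-05). Treml1, a receptor of platelet granules, was 3366 ± 230.4 (SD, n = 5) in NP and 1969 ± 289.8 in P rats (log2 difference -0.78, standard error 0.11, adjusted p = 0.000102).

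Gp9 and Gp5, subunits of the receptor for von Willebrand factor, differed by -0.48, adjusted p = 0.0161, and by -0.68, adjusted p = 0.029. Nrgn, neurogranin, which platelets contain (-0.56, adjusted p = 0.00612), Tubb1, the tubulin of the platelet ring (-0.49, adjusted p = 0.0401), and Clec1b, a platelet lectin (-0.50, adjusted p = 0.0772), were lower too. The other 3 did not pass. F13a1, the factor XIII subunit of platelets and macrophages, differed by -0.22, adjusted p = 0.297, Nfe2, a transcription factor of both megakaryocytes and red cell precursors, by -0.06, adjusted p = 0.714, and Itga2b, the defining integrin of the lineage, by 0.18, adjusted p = 0.489. A lower signal of a lineage's genes in whole bone can come from fewer cells or from less RNA per cell, and these arrays cannot tell the cases apart. The score of the 12 genes, the mean of their centred log2 values, ran from 0.30 to 0.42 in NP rats and from -0.31 to 0.09 in P rats. The 9 calls became 5 with the methods' t-test. Without NP replicate 2 and P replicate 2 the count was 7, as the adjusted p was 0.149 for Gp5 and 0.123 for Clec1b. With single arrays left out, calls that ended were that of Clec1b without NP replicate 2, 3, 4 or 5 or P replicate 3, 4 or 5 (adjusted p 0.1 to 0.193), and that of Tubb1 without NP replicate 4 or P replicate 3 (adjusted p 0.114 to 0.115).

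Since members of the platelet list moved together, their promoters are shown for the 3 that hold both searched motifs and for Ppbp, the member with the largest difference, which holds neither. The 250 bases before the start that the RefSeq promoter table gives for each gene were taken on GRCr8, on the gene's own strand, and capitals mark GATAA or its reverse complement TTATC (the core bound by GATA factors) and AGGAAG or its reverse complement CTTCCT (a core bound by ETS factors).
Gp9 (chr4:121792592-121792841, plus strand): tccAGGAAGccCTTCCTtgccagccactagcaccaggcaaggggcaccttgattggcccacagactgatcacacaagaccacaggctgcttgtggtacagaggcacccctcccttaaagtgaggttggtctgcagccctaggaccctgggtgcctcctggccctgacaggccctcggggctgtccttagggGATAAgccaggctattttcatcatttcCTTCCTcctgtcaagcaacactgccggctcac
Gp5 (chr11:83948257-83948506, plus strand): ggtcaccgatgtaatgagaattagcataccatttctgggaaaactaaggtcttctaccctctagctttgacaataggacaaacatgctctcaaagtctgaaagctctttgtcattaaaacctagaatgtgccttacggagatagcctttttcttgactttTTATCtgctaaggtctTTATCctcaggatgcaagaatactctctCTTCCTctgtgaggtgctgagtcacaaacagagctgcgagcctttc
Clec1b (chr4:164533859-164534108, plus strand): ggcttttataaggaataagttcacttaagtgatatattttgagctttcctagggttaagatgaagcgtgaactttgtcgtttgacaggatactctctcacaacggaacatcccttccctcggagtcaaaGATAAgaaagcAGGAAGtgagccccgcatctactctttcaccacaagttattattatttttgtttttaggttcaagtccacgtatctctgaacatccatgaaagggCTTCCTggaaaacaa
Ppbp (chr14:17587300-17587549, minus strand): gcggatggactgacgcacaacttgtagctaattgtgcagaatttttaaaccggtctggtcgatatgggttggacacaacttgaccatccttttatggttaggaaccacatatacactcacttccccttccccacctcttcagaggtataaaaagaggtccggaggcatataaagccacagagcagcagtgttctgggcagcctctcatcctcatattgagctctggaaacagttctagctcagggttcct
Of the 12 genes 9 had a promoter in the RefSeq table. GATAA occurred in 4 of these 9 on either strand, against 23.2% of 27457 rat promoters, and AGGAAG in 5 of 9, against 29.4%. Shares of 9 promoters are imprecise, and a difference from all promoters was not tested. Gp9 held 1 GATAA and 3 AGGAAG, Gp5 held 2 and 1, and Clec1b held 1 and 2, with no overlap between matches. The 3 genes that did not pass included F13a1, with 3 AGGAAG matches, and Itga2b, with 1 GATAA. For Clec1b and Itga2b the table's start lay inside the gene's RefSeq span, by 122 bases for Clec1b, and the matches of both genes fell within that span and not before it. A match describes the letters only.

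**Figure D3:**
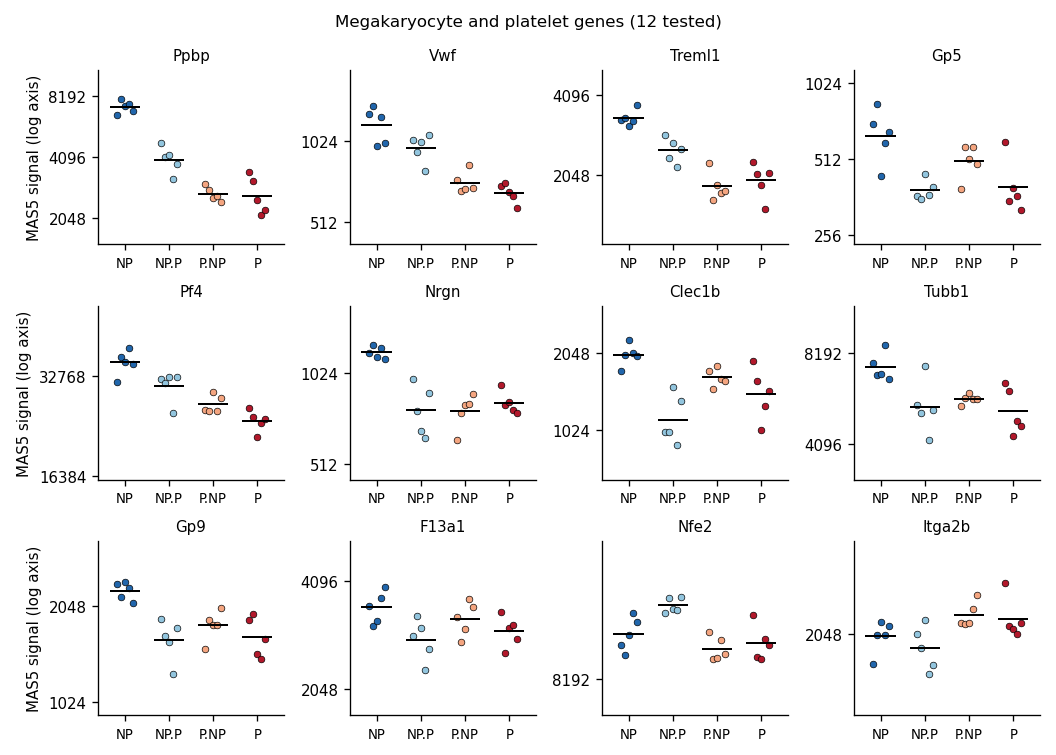
MAS5 signal (log axis) of the 12 megakaryocyte and platelet genes tested, ordered by the difference between P and NP, in the 4 strains, with 1 point per rat and a line at the geometric mean of 5 rats. Ppbp, Vwf, Treml1, Pf4, Nrgn, Tubb1 and Gp9 show no overlap of P and NP rats, and Itga2b, the last panel, is no lower in P rats.

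The granulocyte genes that fell in P rats were Lcn2, 2 genes of eosinophils and a tryptase of mast cells. Of 15 granulocyte genes tested 4 were lower and 0 higher, where 3.2% of all genes were lower and 2.17% higher, with a median of -0.22. Epx, the eosinophil peroxidase, was 8505, 9192, 10898, 9059 and 8253 in NP and 5102, 3656, 2607, 3271 and 3874 in P rats (log2 difference -1.34, standard error 0.17, adjusted p = 2.94e-05). Prg2, the eosinophil major basic protein, was 22227, 31460.3, 31299, 28389 and 25761 in NP and 15977, 13107, 9862, 12988 and 15414 in P rats (log2 difference -1.05, standard error 0.17, adjusted p = 0.000528). Both eosinophil genes thus separated the lines. Tpsab1, a mast cell tryptase, was 857 ± 136 in NP and 459 ± 64.5 in P rats (log2 difference -0.89, standard error 0.18, adjusted p = 0.00489). The abundant neutrophil genes did not pass, with differences of 0.11, adjusted p = 0.569 for S100a8 and of 0.03, adjusted p = 0.909 for S100a9, which together form calprotectin, -0.28, adjusted p = 0.568 for the collagenase Mmp8, and -0.12, adjusted p = 0.631 for the cathelicidin Camp. The mast cell carboxypeptidase Cpa3 did not pass either (-0.19, adjusted p = 0.435).

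Macrophage genes were lower in P rats for 4 of 13 members and higher for 1 (3.2% and 2.17% of all genes), with a median of -0.25. Cd163, the scavenger receptor for haptoglobin-bound hemoglobin, was 1288, 1798, 1442, 1486 and 1691 in NP and 770.3, 825, 901, 1005 and 907 in P rats (log2 difference -0.80, standard error 0.13, adjusted p = 0.00086). The 3 chains of complement C1q, which macrophages secrete, were all lower, C1qa by -0.33, adjusted p = 0.0634, C1qb by -0.40, adjusted p = 0.0322 and C1qc by -0.48, adjusted p = 0.000668. Csf1r, the receptor for macrophage colony-stimulating factor, differed by 0.07, adjusted p = 0.767, and Lyz2, lysozyme, by 0.00, adjusted p = 0.988. The gene that rose was Gpnmb, a glycoprotein of macrophages and osteoblasts whose gene lies in the chromosome 4 segment (0.50, adjusted p = 0.0647). Without NP replicate 2 and P replicate 2 the calls of C1qa and C1qb were lost (adjusted p = 0.127 and 0.119). When any 1 array was dropped in turn, calls that ended were that of C1qa without NP replicate 3, 4 or 5 or P replicate 2 or 4 (adjusted p 0.121 to 0.144), and that of Gpnmb without NP replicate 2 or 3 or P replicate 1, 3, 4 or 5 (adjusted p 0.101 to 0.155).

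Of 8 T and NK, 9 B lymphoid and 29 erythroid genes tested, 2, 0 and 2 passed, where 5.36% of all genes did. Cd3g, a chain of the T cell receptor complex, was 1212, 1152, 1247, 1384 and 1592 in NP and 3440.0, 2420.2, 2784, 2825 and 3263 in P rats (log2 difference 1.16, standard error 0.13, adjusted p = 5.88e-06), while Cd3e and Cd2 lay below the signal needed for testing and Lck, a kinase of T cells, differed by -0.06, adjusted p = 0.853. Nkg7, a granule protein of NK and T cells, was lower (-0.44, adjusted p = 0.0638). None of 9 B lymphoid genes passed, with differences between -0.09 and 0.16. Of 29 erythroid genes, Rhag, the ammonium channel of the red cell membrane, was lower (-0.39, adjusted p = 0.0493) and Nt5c3a, a nucleotidase of red cells encoded in the chromosome 4 segment, was higher in P rats (0.51, adjusted p = 7.45e-05). The median of the 29 was -0.08. In fits without 1 array, calls that ended were that of Nkg7 without NP replicate 1, 3 or 4 or P replicate 2 or 3 (adjusted p 0.109 to 0.162), and that of Rhag without NP replicate 4 or P replicate 2 or 4 (adjusted p 0.103 to 0.141).

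Of 18 osteoblast and bone matrix genes tested 1 passed, where 5.36% of all genes did. Postn, periostin, a matrix protein of the periosteum, was 17956, 20494, 16149, 15639 and 18571 in NP and 22961, 24359, 22012, 23732 and 21592 in P rats (log2 difference 0.37, standard error 0.08, adjusted p = 0.0118). The median of the 18 was 0.03, with Col1a1 at -0.04, adjusted p = 0.885, Bglap, osteocalcin, at 0.01, adjusted p = 0.985, Ibsp, bone sialoprotein, at 0.18, adjusted p = 0.454, Alpl, alkaline phosphatase, at 0.16, adjusted p = 0.536, and Phex, a peptidase of osteocytes in phosphate balance, at 0.38, adjusted p = 0.338. None of 10 osteoclast genes passed (median 0.05), with Ctsk at 0.14, adjusted p = 0.515 and Tnfrsf11a, the receptor RANK, at 0.48, adjusted p = 0.454.

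None of 17 cartilage genes passed at the probe set read, where 5.36% of all genes did, although 14 of the 17 differences were negative (median -0.28). P replicate 2 had a cartilage score of -1.55, and without that array the median of the 17 genes was 0.11. Acan, aggrecan, differed by -0.24 with that array and by 0.06 without it. A dimmer probe set of Col2a1, type II collagen, was lower in P rats (-1.14, adjusted p = 0.00796), whereas the brightest one differed by -0.13, adjusted p = 0.751. None of 25 skeletal muscle genes passed either, but 23 of 25 differences were positive (median 0.23), the largest in genes of slow fibres such as Myl2 (0.87, adjusted p = 0.269), Tnnt1 (0.83, adjusted p = 0.289) and Myh7 (0.81, adjusted p = 0.249). The muscle score ran from -0.68 to 0.52 in NP and from -0.33 to 0.48 in P rats, a wide overlap. Genes of fibroblasts and tendon (20 tested) and of endothelium and marrow niche (14 tested) had no call, with medians of 0.00 and -0.02. Of 12 adipocyte genes 2 were higher and 0 lower in P rats, where 2.17% and 3.2% of all genes were. Scd, stearoyl-CoA desaturase, was 604, 604, 1074, 529 and 773 in NP and 2216, 1222, 1395, 2322 and 1290.0 in P rats (log2 difference 1.23, standard error 0.31, adjusted p = 0.0328). Lpl, lipoprotein lipase, rose as well (0.48, adjusted p = 0.0696), while Adipoq, adiponectin, differed by 0.24, adjusted p = 0.454 and Plin1, perilipin of lipid droplets, by -0.37, adjusted p = 0.226. The median of the 12 was -0.20, opposite in sign to both calls. With single arrays left out, the call of Lpl ended without NP replicate 1, 3, 4 or 5 or P replicate 2, 3, 4 or 5 (adjusted p 0.104 to 0.172).

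In the 8 lists without a call by limma, the unadjusted p was under 0.05 for 0 of 10 osteoclast, 2 of 17 cartilage, 4 of 25 skeletal muscle, 1 of 20 fibroblast, 2 of 14 endothelial, 0 of 9 B lymphoid, 3 of 15 interferon response and 8 of 28 cell division genes. After adjustment the methods' t-test called 0 genes in any of these 8 lists.

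**Figure D4:**
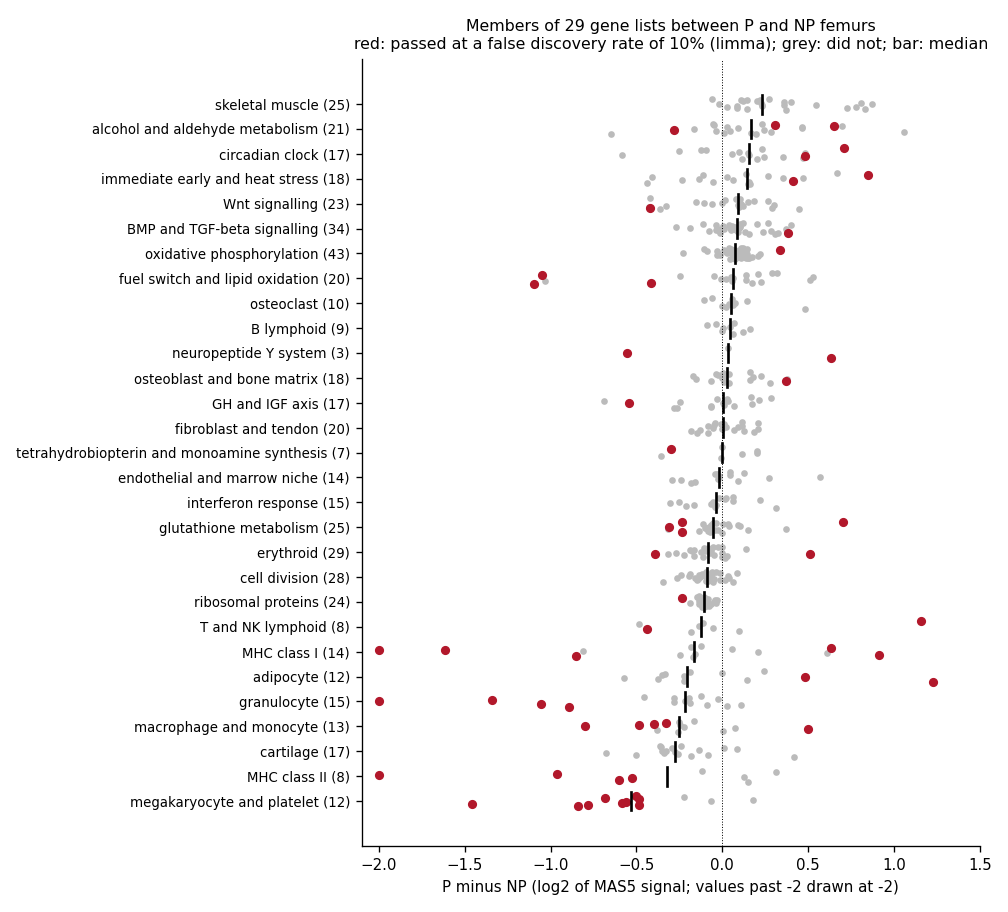
Difference between P and NP femurs (log2 of MAS5 signal) for the tested members of 29 gene lists, with the number tested in brackets, 1 point per gene, red where the gene passed at a false discovery rate of 10% and grey where it did not, and a bar at the list's median. The megakaryocyte and platelet list has the lowest median, -0.53, and skeletal muscle the highest, 0.23, with no muscle gene past the threshold. Values past -2 are drawn at -2.

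Since the lines were bred for alcohol preference, genes of alcohol and aldehyde metabolism, aldo-keto reductases among them, were read as a group. Of 21 tested, 2 were higher and 1 lower in P rats, where 2.17% of all genes were higher and 3.2% lower (median 0.17). Aldh2, the mitochondrial aldehyde dehydrogenase that clears acetaldehyde, was 4571, 4359, 4866, 4723 and 4456 in NP and 3851, 3749, 3627, 3791 and 3919 in P rats (log2 difference -0.28, standard error 0.05, adjusted p = 0.0034). The difference was small but the lines did not overlap. Akr1b8, an aldo-keto reductase encoded in the chromosome 4 segment, was 403, 417, 331, 447 and 352 in NP and 533, 610.0, 691, 712 and 524 in P rats (log2 difference 0.65, standard error 0.11, adjusted p = 0.000933), and its neighbour Akr1b1, aldose reductase, was 6308 ± 703 and 7799 ± 711 (log2 difference 0.31, standard error 0.09, adjusted p = 0.0693). Cyp2e1, the ethanol-oxidising cytochrome, differed by -0.64, adjusted p = 0.294, Adh5, the class III alcohol dehydrogenase, by -0.05, adjusted p = 0.763 and Cat, catalase, by 0.20, adjusted p = 0.112. When any 1 array was dropped in turn, the call of Akr1b1 ended without NP replicate 4 or 5 or P replicate 2, 3 or 4 (adjusted p 0.121 to 0.173).

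In glutathione metabolism the subunits of the rate-limiting enzyme moved in opposite directions. Gclc, the catalytic subunit of glutamate-cysteine ligase, was 2502, 2479, 2589, 2749.7 and 2733 in NP and 4124, 4134, 4235, 4116 and 4669 in P rats (log2 difference 0.70, standard error 0.06, adjusted p = 6.29e-07), and a second probe set rose by 0.39 (adjusted p = 0.0269). Gclm, its modifier subunit, was 6713, 6595, 7057, 7097 and 6664 in NP and 5937, 5532, 5708, 6029.9 and 5786 in P rats (log2 difference -0.24, standard error 0.07, adjusted p = 0.0676). All P rats were above all NP rats for the first and below them for the second. Of 25 genes tested 1 was higher and 3 were lower, where 2.17% and 3.2% of all genes were, Gsta4 (-0.31, adjusted p = 0.0256) and Mgst1 (-0.23, adjusted p = 0.0965), both glutathione transferases, being the others. In fits without 1 array, calls that ended were that of Gclm without NP replicate 3 or 4 or P replicate 2, 3 or 5 (adjusted p 0.106 to 0.145), and that of Mgst1 without NP replicate 1, 2, 3, 4 or 5 or P replicate 1, 2, 3 or 5 (adjusted p 0.12 to 0.202). Gstt3, a theta class transferase outside the list, was 290.3 ± 36.4 in NP and 756 ± 149 in P rats (log2 difference 1.37, standard error 0.12, adjusted p = 2.56e-07).

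Genes of the switch from glucose to fatty acids were lower in P rats for 3 of 20 members and higher for 0, where 3.2% and 2.17% of all genes were (median 0.06). Ucp3, a mitochondrial carrier of muscle, was 1207, 2148, 1091, 1125 and 1068 in NP and 367, 358, 903, 1014 and 632 in P rats (log2 difference -1.10, standard error 0.27, adjusted p = 0.0226). Angptl4, an inhibitor of lipoprotein lipase, was 917, 1862, 1303, 1686 and 2261 in NP and 612, 406, 1259, 782 and 914 in P rats (log2 difference -1.05, standard error 0.27, adjusted p = 0.0351). NP replicate 2 was the highest NP rat for Ucp3, and for Angptl4 the lines overlapped. Pdk4, the kinase that shuts off pyruvate dehydrogenase, was 7229.9, 19029, 6285, 7272 and 8420.1 in NP and 2011, 2040.0, 8452, 7004 and 6097 in P rats (log2 difference -1.03, standard error 0.38, adjusted p = 0.169) and did not pass. Without NP replicate 2 and P replicate 2 the adjusted p was 0.134 for Ucp3 and 0.161 for Angptl4. Txnip, a thioredoxin-binding protein, was lower by -0.42, adjusted p = 0.0821. The genes of fatty acid oxidation itself, such as Cpt1b (0.53, adjusted p = 0.376), Acadm (0.32, adjusted p = 0.477) and Hadha (-0.01, adjusted p = 0.979), did not pass. Of 43 oxidative phosphorylation genes 1 was higher, Cox5a (0.33, adjusted p = 0.043), and 0 were lower, where 2.17% and 3.2% of all genes were. With single arrays left out, calls that ended were that of Txnip without NP replicate 2, 4 or 5 or P replicate 1, 2, 4 or 5 (adjusted p 0.103 to 0.157), and that of Cox5a without NP replicate 5 or P replicate 3 or 5 (adjusted p 0.104 to 0.108).

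In each of 3 signalling lists 1 gene passed, where 5.36% of all genes did. Of 23 Wnt pathway genes 1 was lower, Wls, which carries Wnt proteins to the cell surface. It was 1213, 1041, 1140.0, 1046 and 1114 in NP and 948, 774, 842, 843 and 743 in P rats (log2 difference -0.42, standard error 0.08, adjusted p = 0.00373). Of 34 BMP and TGF-beta genes 1 was higher, the ligand Tgfb2, with 924, 1040.2, 1071, 775 and 940.2 in NP and 1168, 1219, 1402, 1140.3 and 1233 in P rats (log2 difference 0.38, standard error 0.09, adjusted p = 0.0136). Of 17 GH and IGF genes 1 was lower, Igfbp4, a binding protein that limits IGF action, with 1891, 1388, 1803, 1609 and 1809 in NP and 1196, 967, 1179, 1169 and 1313 in P rats (log2 difference -0.54, standard error 0.10, adjusted p = 0.00259). For none of these 3 did the lines overlap. Ligands and receptors such as the following did not pass, with Igf1 at -0.03, adjusted p = 0.901, Bmp2 at 0.10, adjusted p = 0.705 and Lrp5, a Wnt coreceptor, at -0.06, adjusted p = 0.888. Ptgfrn, a tetraspanin partner that the study listed outside the segment, was 1198, 1099, 1069.9, 1029 and 1013 in NP and 1555, 1949.9, 1606, 1753 and 1742 in P rats (log2 difference 0.67, standard error 0.07, adjusted p = 7.08e-06), and at the probe set read it was the only one of 6 such genes tested to pass. RT1-Db1, also on that list, passed at its dimmer probe set, as given above. The study drew that list from NP.P against NP rats, a comparison other than P against NP, on arrays that include these NP rats. The calls between P and NP are therefore no test of that list.

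Npy, the precursor of neuropeptide Y, lies in the chromosome 4 segment and is made in sympathetic nerves and in bone cells. Its signal was 9111, 10282, 9548, 8558 and 8894 in NP and 6402, 7073, 5689, 6005 and 6436 in P rats (log2 difference -0.55, standard error 0.09, adjusted p = 0.000775), with every P rat below every NP rat. Npy1r, the Y1 receptor, ran the other way, with 246, 138, 159, 189.8 and 154 in NP and 237, 332, 318, 242 and 237 in P rats (log2 difference 0.64, standard error 0.17, adjusted p = 0.0451), close to the lowest signals tested and with overlap. Dpp4, a peptidase that trims neuropeptide Y, differed by 0.03, adjusted p = 0.909. Gch1, which makes the first intermediate of tetrahydrobiopterin, the cofactor of monoamine synthesis, was lower in P rats (-0.30, adjusted p = 0.0444). Of 7 genes of this synthesis tested, 1 was lower and 0 higher, where 3.2% and 2.17% of all genes were. When any 1 array was dropped in turn, calls that ended were that of Npy1r without NP replicate 3 or 5 or P replicate 2 or 3 (adjusted p 0.103 to 0.119), and that of Gch1 without NP replicate 4 or P replicate 2 (adjusted p 0.12 to 0.125).

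Of 18 immediate early and heat stress genes 2 were higher in P rats, where 2.17% of all genes were. Dusp1, a phosphatase that ends MAP kinase signals, was 4397, 4216, 3804, 3606 and 3289.8 in NP and 6951, 7863, 7291, 6259 and 6351 in P rats (log2 difference 0.85, standard error 0.10, adjusted p = 1.61e-05). A dimmer probe set of Dusp1 did not pass (-0.14, adjusted p = 0.693). Jun, an AP-1 subunit, rose by 0.41, adjusted p = 0.0633, whereas Fos (0.03, adjusted p = 0.967) and Egr1 (-0.11, adjusted p = 0.647) did not pass. Of 17 clock genes 2 were higher, against the same 2.17% of all genes. They were Bhlhe40, a repressor within the clock (0.71, adjusted p = 0.0515), and Nr1d2, a nuclear receptor of the clock (0.48, adjusted p = 0.0919), with Per3 at 0.47, adjusted p = 0.146 and Dbp at 0.48, adjusted p = 0.225. None of 28 cell division genes passed (median -0.09), where 5.36% of all genes did. All 24 ribosomal protein genes had negative differences, of -0.24 to -0.03, with 1 call, Rpl19 (-0.24, adjusted p = 0.0992), where 3.2% of all genes were called lower. In fits without 1 array, calls that ended were that of Jun without NP replicate 3, 4 or 5 or P replicate 1 or 2 (adjusted p 0.112 to 0.158), that of Bhlhe40 without NP replicate 5 or P replicate 1, 2 or 3 (adjusted p 0.101 to 0.134), that of Nr1d2 without NP replicate 1, 3, 4 or 5 or P replicate 1, 2 or 3 (adjusted p 0.109 to 0.218), and that of Rpl19 without NP replicate 2, 3, 4 or 5 or P replicate 1, 2, 4 or 5 (adjusted p 0.12 to 0.199).

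The 4q22-q34 segment differs between the inbred lines together with the rest of the genome. Of 384 probe sets tested between Arf5 and Ppp4r2 on chromosome 4, 25 differed between P and NP rats (6.51%), 17 higher (4.43%) and 8 lower (2.08%), against 723 of 13746 placed outside it (5.26%). Nt5c3a was 3471, 3207, 3693, 3926 and 3281 in NP and 5067, 4819, 5025, 4926 and 5196 in P rats (log2 difference 0.51, standard error 0.07, adjusted p = 7.45e-05), the lowest adjusted p of the segment. Cyren, a regulator of DNA end joining, was 432 ± 77.4 (SD, n = 5) in NP and 762 ± 141 in P rats (log2 difference 0.82, standard error 0.16, adjusted p = 0.0039). Ezh2, the methyltransferase of Polycomb, was higher at 1 probe set (0.46, adjusted p = 0.000975), as were Pals2, a scaffold of cell junctions (0.49, adjusted p = 0.00136), Dgki, a diacylglycerol kinase (0.69, adjusted p = 0.0132), Ghrhr, the receptor for growth hormone releasing hormone (0.69, adjusted p = 0.0444), and Tmem140 (0.56, adjusted p = 0.00146). Among the 8 lower in P rats, besides Npy and Gp9, were Skap2, an adaptor of leukocyte signalling (-0.42, adjusted p = 0.00486), Wdr91, a protein of endosome maturation (-0.51, adjusted p = 0.0117), Gimap5, a GTPase of lymphocyte survival (-0.35, adjusted p = 0.0368), and Tmem176b (-0.33, adjusted p = 0.0548). Of the 42 genes of the segment that the study listed and that were tested here, 4 were higher and 4 lower at the probe set read, and with Ghrhr and Pals2, which were called at dimmer probe sets, 6 were higher. The study chose that list on these samples, so it is not independent evidence. The 4 listed genes higher at the probe set read were Gpnmb, Tmem140, Nt5c3a and Magi1. Magi1 differed by 0.46, adjusted p = 0.0879, and its other probe set by -0.13, adjusted p = 0.704. With single arrays left out, calls that ended were that of Tmem176b without NP replicate 3 or 4 or P replicate 2 or 3 (adjusted p 0.109 to 0.142), that of Ghrhr without NP replicate 4 or 5 or P replicate 3 (adjusted p 0.106 to 0.125), and that of Gimap5 without NP replicate 3 (adjusted p 0.101). The call of Magi1 ended without NP replicate 3 or 4 or P replicate 1, 2, 3, 4 or 5 (adjusted p 0.106 to 0.211).

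The congenic pair, P.NP against NP.P, has the same backgrounds as P against NP but the segment exchanged, and it shares no array with the inbred pair. In it 3697 of the 18625 probe sets differed (19.8%), 10.2% upward and 9.7% downward in P.NP rats. Of the 999 probe sets that differed between P and NP, 871 had the same sign in the congenic pair (87.2%) and 620 were called in the same direction, with 32 called in the opposite direction. Outside the segment 647 of 723 had the same sign (89.5%). In the segment 6 of 25 did, and 12 were called in the opposite direction. The leading genes had differences of similar size in both pairs. Fam111a differed by 3.0 between P and NP and by 2.71 between P.NP and NP.P rats, Lcn2 by -3.93 and -3.65, Setd1b by -2.61 and -3.0, and the RT1-Bb probe sets by -5.74 and -5.53 and by 2.83 and 3.62.

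The difference between the pairs was itself tested. It passed for 165 of the 18625 probe sets (0.886%), for 25 of 384 in the segment (6.51%) and for 101 of 13746 outside it (0.735%). Of the 999 it passed for 62, 15 of them in the segment and 32 outside. Nt5c3a averaged 3516 (NP), 5922 (NP.P), 3240.5 (P.NP) and 5006 (P), so the rats with the P segment were high on either background (difference between the pairs, adjusted p = 2.95e-07). Akr1b8 (390.0, 798, 391 and 614 in the same order, adjusted p = 7.05e-06) and Tmem140 (911, 1821, 926 and 1333, adjusted p = 7.05e-06) had that order too.

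Outside the segment the probe sets whose difference depended on the pair included several of platelets and mast cells, named here after their values were seen. Ppbp averaged 7220.1 (NP), 3989 (NP.P), 2691 (P.NP) and 2675 (P) (adjusted p = 0.0272). Clec1b had 2018, 1146, 1648 and 1449 (adjusted p = 0.0347). NP rats were the highest strain for both. Alox12, the lipoxygenase of platelets, differed by -0.55 between P and NP and by 0.50 between P.NP and NP.P rats (adjusted p = 0.023), and F2rl3, a thrombin receptor of platelets, by -0.86 and 0.10 (adjusted p = 0.0925). The mast cell genes Tpsab1 (-0.89 and 0.42, adjusted p = 0.023), Tpsb2 (-0.47 and 0.49, adjusted p = 0.0272) and Mcpt1l1, a mast cell protease (-0.66 and 0.43, adjusted p = 0.0135), had opposite signs in the pairs. For the whole platelet list the median was -0.53 between P and NP and 0.04 between P.NP and NP.P rats. Against their own background strains, which share arrays with the pairs above, it was -0.42 between NP.P and NP and 0.12 between P.NP and P rats. The list was split in the congenic pair, with 4 of the 12 genes called lower and 2 higher in P.NP rats. Ppbp (-0.56), Vwf (-0.43), Treml1 (-0.45) and Nfe2 (-0.31) were lower there, and Clec1b (0.55) and Itga2b (0.34) higher. The difference between the pairs passed for 4 of the 12, and not for Vwf or Treml1 (adjusted p = 0.282 and 0.413). When any 1 array was dropped in turn, calls that ended were that of Alox12 without P replicate 3 or 4 (adjusted p 0.103 to 0.104), and that of Tpsb2 without NP replicate 3, 4 or 5 or P replicate 4 or 5 (adjusted p 0.122 to 0.162). Eosinophil genes held their direction, with Epx at -1.34 and -0.79 and Prg2 at -1.05 and -0.81.

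**Figure D5:**
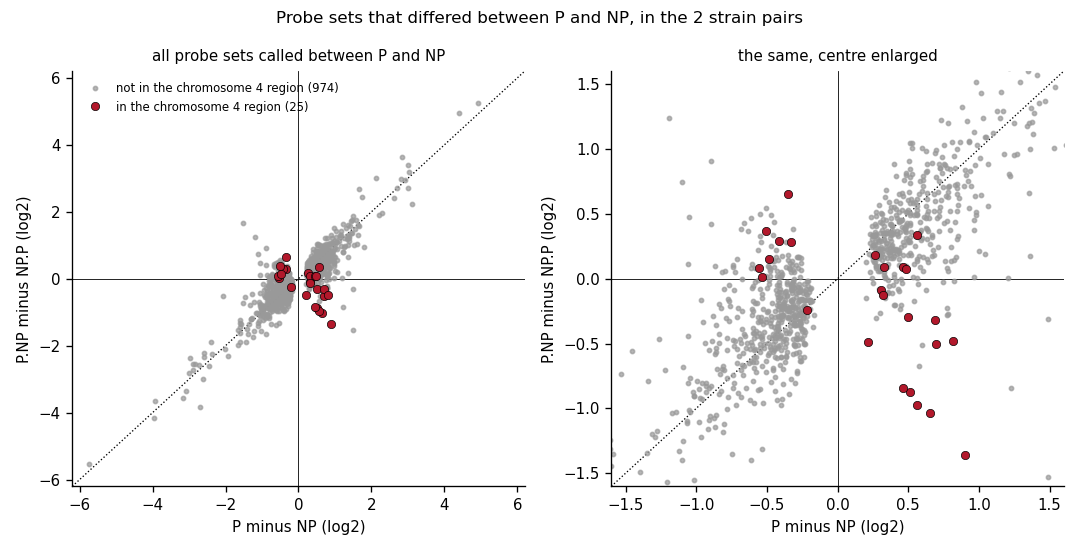
Difference between P.NP and NP.P femurs against the difference between P and NP femurs (both log2) for the 999 probe sets that differed between P and NP, grey for those not in the chromosome 4 segment and red for the 25 in it, with the centre enlarged on the right and a dotted line where both differences are equal. Most grey points lie along the line, and 19 of the 25 red points have opposite signs.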

How the data were processed

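Femur RNA of 20 rats, 5 each of P, NP, NP.P and P.NP, was hybridised to Affymetrix Rat Genome 230 2.0 arrays, 1 rat per array. The deposited values are linear MAS5 signal intensity per probe set, which the authors made with the Affymetrix software and scaled to a common trimmed mean per array, so a difference is relative to the bulk of each array. The study's RMA values and its detection calls were not used here. Of 31099 probe sets, 57 controls were left out. Of the other 31042, 20826 carried 1 gene symbol in the platform annotation, 436 several and 9780 none, and 20813 were placed on GRCr8 through RefSeq.

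Signals were floored at 1 and log2 transformed, and the 18625 probe sets with a mean log2 at or above the 40th percentile were tested with limma 3.58.1 (R 4.3.3) over all 20 arrays (16 residual degrees of freedom), with Benjamini-Hochberg adjustment over all of them and a false discovery rate of 10%. Where a gene had several probe sets, the one with the highest mean log2 stood for it. The fit was tested on simulated data. Each value rests on 5 arrays per line, and that number limits the precision. The p-values measure the spread between these rats. The members and lists were chosen with earlier results of these data known. Named were the 12 genes with the lowest adjusted p and the 8 with the largest differences in each direction, genes the study listed that passed, and up to 4 called members and the defining markers of each list. Further list members and RT1, platelet, mast cell and segment genes (Pdk4, Cd74, RT1-Db1, Nrgn, Tubb1, Clec1b, Gp5, Alox12, F2rl3 and others) were named after their values were seen. Alternatives were no filter, a 60th percentile filter, quantile normalization, an offset, a variance trend, a false discovery rate of 5%, the 10 arrays alone, the methods' t-test, the replicate number as a block, each array left out, and, chosen after seeing the data, both replicate 2 arrays left out.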

Additional observations from a re-analysis of the deposited data

Results flagged for a closer look

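For some single genes and list scores of the P and NP lines, 1 rat lay apart from the other 4 of its line. The measure is the gap from that rat to its nearest neighbour, divided by the range of the 5. Chance alone gives such a gap in about 1 in 20 groups, and the number of gaps found was not set against that share. Most of the gaps belonged to P replicate 2 or NP replicate 2, the arrays that also stood apart on the second principal component. In P replicate 2 the ratio was 0.835 for Acan, 0.762 for Col10a1, 0.739 for Ctsk, 0.807 for Fam111a, 0.730 for Gpnmb, 0.843 for Mmp9, 0.753 for Nr1d2 and 0.806 for RT1-A, and it was 0.864 for the osteoblast score, 0.748 for the cartilage score, 0.719 for the macrophage score and 0.731 for the Wnt score. In NP replicate 2 it was 0.738 for Cd68, 0.804 for Gstt3, 0.715 for Lpl, 0.816 for Mmp9, 0.736 for Pdk4, 0.728 for RT1-Da, 0.765 for Txnip and 0.825 for Ucp3, and it was 0.746 for the B lymphoid score, 0.753 for the class II score, 0.791 for the fuel switch score and 0.727 for the oxidative phosphorylation score. In NP replicate 1 the ratio was 0.727 for Col1a1, 0.886 for Prcp, 0.922 for Rpl19 and 0.907 for the ribosomal protein score. The remaining gaps were those of NP replicate 3 in the T and NK score (0.936) and in F2rl3 (0.743), NP replicate 4 in Psmb8 (0.789), NP replicate 5 in the interferon score (0.741), P replicate 1 in Cwc25 (0.745), Itga2b (0.787) and RT1-Bb (0.711), and P replicate 5 in Gclc (0.775) and Klf1 (0.716).

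For 29 named genes the difference between P and NP rats differed from that between P.NP and NP.P rats, by limma's test of the difference between the pairs with adjustment over all probe sets. The values here are the first log2 difference minus the second. Genes of the chromosome 4 segment with positive values were Akr1b8 (1.69, adjusted p = 7.05e-06), Tmem140 (1.54, adjusted p = 7.05e-06), Nt5c3a (1.38, adjusted p = 2.95e-07), Ezh2 (1.31, adjusted p = 3.56e-06), Cyren (1.29, adjusted p = 0.0133), Ghrhr (1.2, adjusted p = 0.0541) and Dgki (1.01, adjusted p = 0.0479), and those with negative values were Gimap5 (-1.0, adjusted p = 0.000588), Wdr91 (-0.87, adjusted p = 0.0177), Skap2 (-0.70, adjusted p = 0.00963), Npy (-0.64, adjusted p = 0.0347), Gp9 (-0.64, adjusted p = 0.0925) and Tmem176b (-0.62, adjusted p = 0.0408). Platelet genes had negative values too, with Gp5 at -1.06 (adjusted p = 0.0626), Clec1b at -1.05 (adjusted p = 0.0347), Alox12 at -1.05 (adjusted p = 0.023), F2rl3 at -0.97 (adjusted p = 0.0925) and Ppbp at -0.90 (adjusted p = 0.0272). Of the mast cell genes, Tpsab1 was at -1.32 (adjusted p = 0.023), Mcpt1l1 at -1.10 (adjusted p = 0.0135) and Tpsb2 at -0.96 (adjusted p = 0.0272). C1qc was at -0.47 (adjusted p = 0.0752). RT1-Db1 was at -0.61 (adjusted p = 0.0177) at the probe set with its highest mean, which did not differ between P and NP rats, and at -0.50 (adjusted p = 0.724) at the one that did. Genes of lipid metabolism went both ways. Scd was at 2.07 (adjusted p = 0.0435) and Adipoq at 0.84 (adjusted p = 0.098), whereas Ucp3 was at -1.84 (adjusted p = 0.0347) and Angptl4 at -1.52 (adjusted p = 0.0961). Gch1 was at 0.50 (adjusted p = 0.0637) and Ptgfrn at 0.49 (adjusted p = 0.0408).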

How the results depend on the processing

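The count of probe sets that differed between P and NP rats was 999, with 452 higher and 547 lower in P rats. It fell to 653 (297 and 356) at a false discovery rate of 5%, to 619 (282 and 337) with the arrays of the P and NP lines alone and to 411 (177 and 234) with the methods' t-test after adjustment. With 1 array left out it ran from 756 to 1237, with 346 to 593 higher and 396 to 644 lower. It was 722 with no filter, 1013 with the 60th percentile filter, 1075 after quantile normalization, 1015 with the offset, 1093 with the variance trend and 841 without both replicate 2 arrays. The 25 probe sets of the chromosome 4 segment became 15 with no filter, 16 at 5%, 14 with the P and NP lines alone, 10 with the t-test and 17 to 28 with 1 array left out, and 62 were counted over all of chromosome 4. Of the probe sets called in both pairs, the 620 in the same direction became 293 with the t-test and 497 to 691 with 1 array left out, and the 32 in the opposite direction became 16 with no filter, 14 at 5%, 14 with the P and NP lines alone, 7 with the t-test and 23 to 39 with 1 array left out. The cause of these shifts was not tested.

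Same-numbered P and NP rats deviated together for number 2 (correlation 0.333) but not for the others (-0.0216 to 0.091), so the rats were treated as unpaired. With the replicate number as a block the count was 1080, and 4 of the named probe sets lost their call. Of 110 probe sets named with a call, 66 kept it in every alternative that tested them, and 0 changed direction while called. The methods' t-test ended 40 of these calls, the P and NP lines alone 25, both replicate 2 arrays left out 17, no filter 17 and the 5% threshold 16. The 5 arrays per line limit the precision of every value.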
